A study of Mus musculus with 4 samples.

Results

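The 10 imprinted fetal growth genes Igf2, H19, Meg3, Peg3, Plagl1, Cdkn1c, Dlk1, Grb10, Mest and Ndn were chosen by name and described in RNA sequencing of mouse brain endothelial cells. All 10 were listed in both deposited count tables, among 14100 genes listed in both and 17905 in either, and all 10 passed the filter on low counts. The study compared 2 genotypes in C57BL/6 embryos at embryonic day 18, with 2 libraries of the genotype STINGECKO (replicates 1 and 2) and 2 of wild type (WT, replicates 3 and 5). The genotype name is read here as an endothelial cell knockout of STING, the adaptor of cytosolic DNA sensing. No source used here gives the Cre driver or the deleted exons. All 4 libraries came from brain, the cell type is given as endothelial cell, and the labels name no treatment. Whether libraries of a genotype came from separate embryos is not stated, so a p-value here reflects no more than the spread among these libraries, which may be technical.

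An imprinted gene is expressed mainly from the allele of one parent, under the control of DNA methylation set in the germ line. As a broad rule, paternally expressed genes such as Igf2, Peg3, Plagl1, Dlk1 and Mest promote fetal growth, whereas maternally expressed genes such as H19, Cdkn1c and Grb10 restrain it. Many of these genes are high in fetal tissues and fall after birth, and in brain vessels several of them are known from endothelial cells and from the mural cells around them. Reads per gene do not tell the parental alleles apart, so imprinting itself was not measured.

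In brief, 0 of the 10 genes passed the genotype test by edgeR, and of all 13365 genes tested 0 did. Mest, Igf2, Grb10 and Plagl1 were lower in both STINGECKO libraries than in both WT libraries, and Dlk1 was higher in both. The other 5 genes overlapped between the genotypes. Igf2, H19, Mest and Grb10 were abundant in every library, while Meg3, Dlk1 and Cdkn1c were near the lower end of what was counted.

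The sequences upstream of 5 transcription starts are shown because they belong to the members whose genotypes did not overlap (Mest, Igf2, Grb10 and Dlk1) and to Meg3, the neighbour of Dlk1. For Plagl1 the window held annotated exons and is not printed. Promoters are from RefSeq on GRCm38.p6, with 8 of the 10 members matched. H19 and Cdkn1c were not matched. Each run is the 250 bases before the start, 5′ to 3′ on the gene's strand, and touched no exon of the GENCODE annotation. Capitals mark TGCCGC or its reverse complement, the core hexamer bound by ZFP57, a zinc finger protein that keeps methylation at imprinted control regions.
Mest (chr6:30737800-30738049, plus strand): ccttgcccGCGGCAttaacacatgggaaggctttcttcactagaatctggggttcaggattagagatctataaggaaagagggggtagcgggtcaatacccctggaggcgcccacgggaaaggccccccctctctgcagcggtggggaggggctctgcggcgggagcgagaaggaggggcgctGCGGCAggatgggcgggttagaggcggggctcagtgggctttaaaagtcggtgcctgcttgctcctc
Igf2 (chr7:142657497-142657746, minus strand): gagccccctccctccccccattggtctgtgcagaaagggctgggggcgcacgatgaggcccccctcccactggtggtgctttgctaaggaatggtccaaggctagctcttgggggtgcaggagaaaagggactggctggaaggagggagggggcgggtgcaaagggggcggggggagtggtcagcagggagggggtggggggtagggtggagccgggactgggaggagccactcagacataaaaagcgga
Grb10 (chr11:12037421-12037670, minus strand): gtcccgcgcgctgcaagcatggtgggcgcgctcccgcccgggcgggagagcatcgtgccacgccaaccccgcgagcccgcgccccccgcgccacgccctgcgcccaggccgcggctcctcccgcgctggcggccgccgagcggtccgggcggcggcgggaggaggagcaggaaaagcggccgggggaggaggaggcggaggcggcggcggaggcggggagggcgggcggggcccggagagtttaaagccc
Dlk1 (chr12:109452573-109452822, plus strand): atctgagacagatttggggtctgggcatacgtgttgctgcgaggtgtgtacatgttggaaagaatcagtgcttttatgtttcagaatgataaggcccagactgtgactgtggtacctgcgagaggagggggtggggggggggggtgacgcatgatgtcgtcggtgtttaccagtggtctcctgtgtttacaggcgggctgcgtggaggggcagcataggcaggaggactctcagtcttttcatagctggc
Meg3 (chr12:109540746-109540995, plus strand): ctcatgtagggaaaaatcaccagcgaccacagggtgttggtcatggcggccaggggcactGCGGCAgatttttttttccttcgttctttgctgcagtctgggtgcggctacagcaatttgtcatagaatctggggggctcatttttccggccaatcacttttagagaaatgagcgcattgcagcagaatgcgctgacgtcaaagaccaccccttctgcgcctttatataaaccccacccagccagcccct

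The Mest window held the hexamer 2 times and the Meg3 window 1 time. Among the 8 matched members, 3 had it in at least 1 window (Meg3, Mest and Plagl1), and 8.68% of all 32851 promoter windows of the same length had it on either strand. Some members have several starts: over their 15 windows, 4 held the hexamer (26.7%), and 2 of these 4 are windows of Mest that start 3 bases apart. The Grb10 window printed here was the richest in CpG of the 15, with 40 CpG dinucleotides and a GC content of 81.2%, against a median of 6 CpG over all windows. It also held the GC box GGGCGG, counted on both strands, 5 times, and 32.7% of all windows had at least 1. A second Grb10 window without annotated exons, 12027972 to 12028221, had 8 CpG, 54.0% GC and 0 GC boxes, and a second such Igf2 window, 142666817 to 142667066, had 1 CpG. These other windows are not printed. The Meg3 window alone among the members had the TATA box letters TATAAA, on both strands at overlapping positions near the start (12.4% of all windows). These matches are letters in a window, not measured binding.

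Of the members, 4 hold miRNA genes within their bounds on the same strand. With RefSeq positions set against merged GENCODE exons, Mir675 lies in an exon of H19, Mir483 in an intron of Igf2 and Mir335 in an intron of Mest. Mir770 and Mir1906-1 lie in Meg3. The mature miRNAs of the 3 abundant hosts are shown because reads over H19 cover the exon that miR-675 is cut from, whereas reads over exons of Igf2 and Mest leave out the introns that hold theirs. Capitals mark the seed, bases 2 to 8.
mmu-miR-675-5p (H19): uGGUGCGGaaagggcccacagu
mmu-miR-675-3p (H19): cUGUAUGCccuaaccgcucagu
mmu-miR-483-5p (Igf2): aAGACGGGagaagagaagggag
mmu-miR-483-3p (Igf2): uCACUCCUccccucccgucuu
mmu-miR-335-5p (Mest): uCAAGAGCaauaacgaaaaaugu
mmu-miR-335-3p (Mest): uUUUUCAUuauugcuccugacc

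No seed was shared among the 9 mature miRNAs of the members. Levels of mature miRNAs were not measured here.

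Several facts of the libraries touch the values that follow. Listed reads ranged from 18610298 to 22169261 per library. STING, encoded by Tmem173, had 67 and 182 reads in STINGECKO 1 and 2 and 97 and 130 in WT 3 and 5, so it did not separate the genotypes, and every direction given here is that of the libraries as labelled. Reads are summed over all exons of a gene, whether deleted or not. STINGECKO 2 had 13.2% of the 14100 shared genes at 0 reads, against 2.39% to 5.25% in the other libraries. STINGECKO 1 had 3623 reads of the Y-linked gene Ddx3y and 0 of Xist, and the other libraries had 876 to 3374 reads of Xist, with Ddx3y at 0 in WT 3 and not listed (at most 4 reads) for STINGECKO 2 and WT 5, so the libraries differed in sex. All 12 endothelial markers had reads in every library, and their summed level was 27028 to 28563 CPM (reads scaled to a common library total with TMM factors). With p-values adjusted by Benjamini-Hochberg, the quasi-likelihood test of edgeR called 0 of 13365 genes, with 642 (4.80%) at an unadjusted p under 0.05. DESeq2 called 87 of 12587 genes (0.691%), and 0 of the 10 members were among them.

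Levels of the 10 genes fell into a high and a low set. Per kilobase of merged exon, H19 averaged 61.0 CPM per kb over the 4 libraries, Igf2 50.1, Mest 40.4 and Grb10 40.0, and the ranges of neighbours in that order overlapped. Plagl1 followed at 11.6 CPM per kb, and its range lay below that of Grb10. Ndn averaged 4.25, Cdkn1c 2.23, Peg3 1.30 and Dlk1 0.876 CPM per kb, each overlapping its neighbour. Meg3 was the lowest at 0.209 CPM per kb, below the range of Dlk1. Exons of all annotated transcripts were merged for these lengths, which gave Meg3 18089 bases and H19 2460, so a gene with long rare isoforms has a lower value per kb than its main transcript would give.

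**Figure D1:**
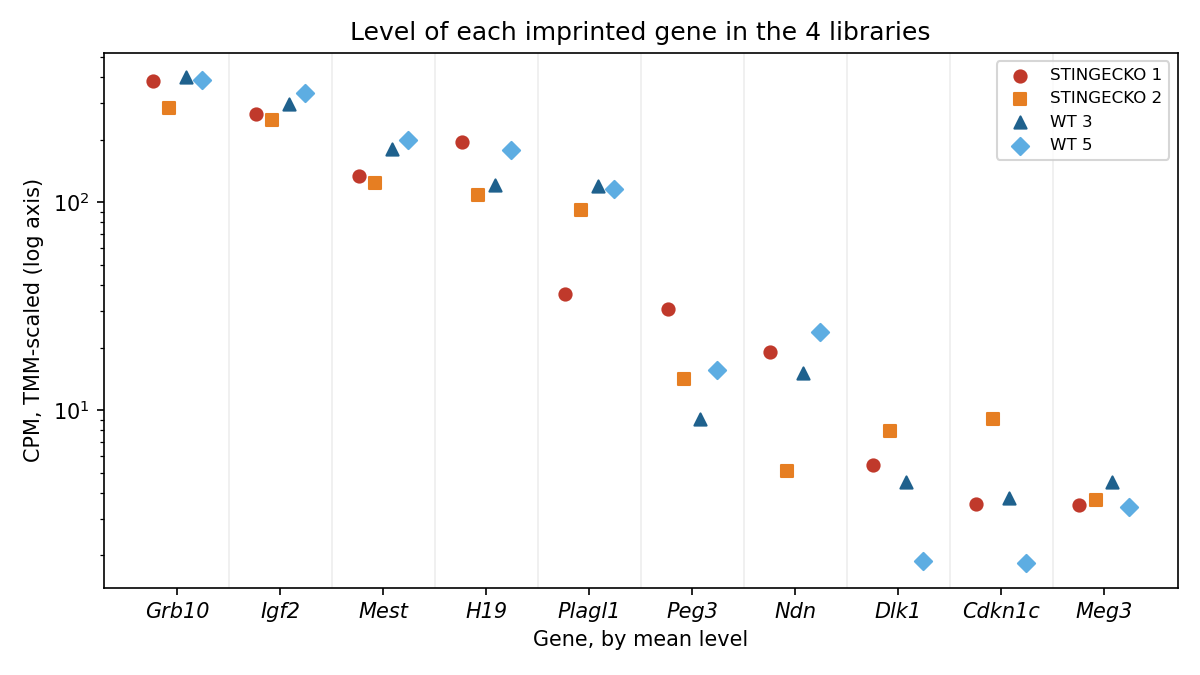
Level of each of the 10 genes in CPM on a log axis, with 1 point per library (2 STINGECKO, 2 WT) and genes ordered by mean level. Grb10, Igf2, Mest and H19 lie between 108 and 399 CPM in every library, and Meg3, Cdkn1c and Dlk1 below 10 CPM.

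Mest, a paternally expressed gene for a protein of the alpha/beta hydrolase fold (ENSMUSG00000051855, GRCm38 chromosome 6, 30723547 to 30748465, plus strand), was the member with the smallest p. It was at 134 CPM in STINGECKO 1, 124 in STINGECKO 2, 180 in WT 3 and 200 in WT 5. Both STINGECKO libraries were below both WT libraries, and each pair of replicates was close. The means were 129 ± 6.83 CPM in STINGECKO and 190 ± 14.0 in WT (SD, n = 2 each), and the log2 fold change was -0.56 (SE 0.23, 95% interval -1.15 to 0.04, unadjusted p = 0.0612, adjusted p = 1.00 by edgeR). It stayed between -0.63 and -0.47 with each library left out in turn. Merged exons of Copg2 on the opposite strand cover 23.1% of those of Mest. No source used here says whether the counting used strand, so reads from the shared stretch cannot be assigned. Copg2 itself was at 38.3, 30.7, 37.7 and 40.8 CPM in the same order of libraries.

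Igf2, the paternally expressed growth factor that signals through the IGF1 receptor (ENSMUSG00000048583, chromosome 7, 142650766 to 142666816, minus strand), was at 266 CPM in STINGECKO 1, 250 in STINGECKO 2, 296 in WT 3 and 335 in WT 5. The genotypes did not overlap, with WT 5 highest. The means were 258 ± 11.6 and 315 ± 27.6 CPM (SD, n = 2 each), and the log2 fold change was -0.29 (SE 0.20, 95% interval -0.80 to 0.22, adjusted p = 1.00 by edgeR). The GENCODE gene Gm49394 shares 62.8% of the merged exons of Igf2 on the same strand and was not listed in the tables.

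Grb10, a maternally expressed adaptor that binds insulin and IGF receptors and dampens their signals (ENSMUSG00000020176, chromosome 11, 11930508 to 12038683, minus strand), was at 384, 285, 399 and 385 CPM in STINGECKO 1, STINGECKO 2, WT 3 and WT 5. STINGECKO 2 alone stood low, and STINGECKO 1 lay just under WT 5. Counting intervals (95%, exact Poisson) were 375 to 393 CPM in STINGECKO 1 and 377 to 394 in WT 5, so they overlapped. The log2 fold change of -0.23 (SE 0.23) went to -0.03 without STINGECKO 2 and to -0.46 without STINGECKO 1. The 95% interval with all libraries was -0.81 to 0.35.

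Plagl1, a paternally expressed zinc finger transcription factor (ENSMUSG00000019817, chromosome 10, 13060504 to 13131694, plus strand), was at 36.4 CPM in STINGECKO 1, 92.2 in STINGECKO 2, 119 in WT 3 and 115 in WT 5. The WT libraries were close, and STINGECKO 1 was far below the rest. The log2 fold change was -0.87 (SE 0.50, 95% interval -2.15 to 0.41, adjusted p = 1.00 by edgeR). It was -0.34 without STINGECKO 1 and -1.68 without STINGECKO 2. The difference between the STINGECKO libraries, 1.34 on the log2 scale, exceeded that between the genotype means, 1.02.

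Dlk1, a paternally expressed transmembrane protein with EGF repeats that is related to Notch ligands (ENSMUSG00000040856, chromosome 12, 109452823 to 109463336, plus strand), had 100, 174, 98 and 39 reads in STINGECKO 1, STINGECKO 2, WT 3 and WT 5. These were 5.45, 7.96, 4.53 and 1.88 CPM. The genotypes did not overlap, but STINGECKO 1 and WT 3 were close: their counting intervals (95%, exact Poisson) were 4.43 to 6.63 and 3.68 to 5.52 CPM. The log2 fold change was 1.06 (SE 1.33, 95% interval -2.33 to 4.45, adjusted p = 1.00 by edgeR), 0.57 without WT 5 and 1.83 without WT 3. Counting intervals and binomial intervals leave out all error but that of counting, and reads are not independent molecules.

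The genotypes did not overlap with STINGECKO lower in 4 of the 10 members, where 19% of all 13365 tested genes had that order, and with STINGECKO higher in 1 of 10, where the share was 15.4%. With 2 libraries against 2, an exact two-sided permutation test cannot give a p below 0.333. Of the members, 4 had a log2 fold change above 0 and 6 below, against 48.2% of all genes above 0 and 51.8% below. The median was -0.18 for the members and -0.03 for all tested genes. In 8 of the 10, the larger of the differences between replicates exceeded the difference between the genotype means on the log2 scale. The exceptions were Mest and Igf2. Over all 13365 genes the share was 79.4%.

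**Figure D2:**
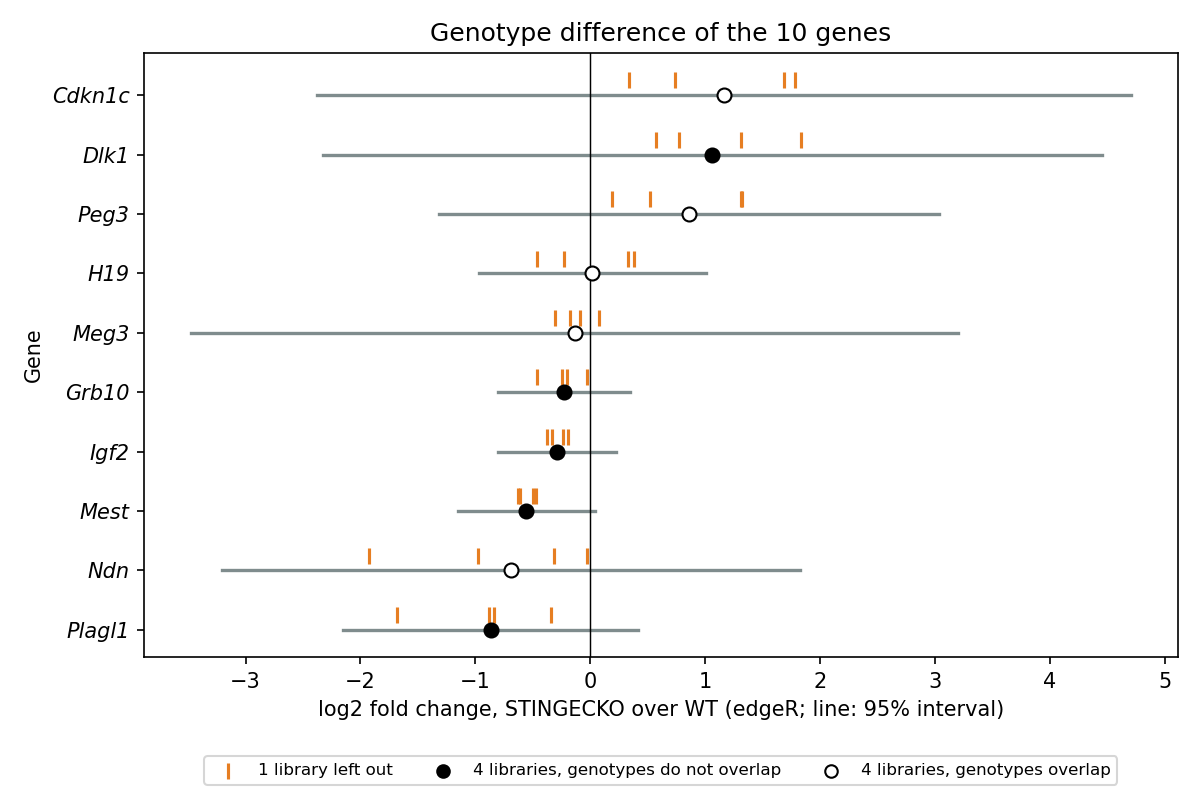
Log2 fold change (STINGECKO over WT, x axis) of each of the 10 genes from edgeR, with its 95% interval as a line, and the values with 1 library left out as ticks above it. Every interval includes 0, and the ticks of H19 and Meg3 lie on both sides of 0.

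H19, the maternally expressed long noncoding RNA downstream of Igf2 (ENSMUSG00000000031, chromosome 7, 142575529 to 142578143, minus strand), was at 194 CPM in STINGECKO 1, 108 in STINGECKO 2, 121 in WT 3 and 178 in WT 5. Each genotype had a high and a low library, so the ranges overlapped almost completely. The log2 fold change was 0.02 (SE 0.39, 95% interval -0.97 to 1.00), with a sign that turned under other scalings (-0.0089 with upper quartile scaling and -0.012 with library totals).

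Cdkn1c, the maternally expressed inhibitor of cyclin-dependent kinases known as p57 (ENSMUSG00000037664, chromosome 7, 143458339 to 143461050, minus strand), had 65 and 198 reads in STINGECKO 1 and 2 and 82 and 38 in WT 3 and 5. These were 3.54, 9.05, 3.79 and 1.83 CPM. STINGECKO 2 was the highest and WT 5 the lowest, while STINGECKO 1 and WT 3 could not be separated by their counting intervals of 2.73 to 4.52 and 3.02 to 4.71 CPM. The log2 fold change was 1.16 (SE 1.39) with all libraries 0.34 without STINGECKO 2 and 1.78 without WT 3. The antisense gene Gm44732, which was not listed in the tables, overlaps 30.7% of its merged exons.

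Peg3, a paternally expressed zinc finger protein (ENSMUSG00000002265, chromosome 7, 6703892 to 6730431, minus strand), was at 30.7, 14.0, 9.06 and 15.6 CPM in STINGECKO 1, STINGECKO 2, WT 3 and WT 5. STINGECKO 1 was the highest library, and STINGECKO 2 lay between the WT libraries. The log2 fold change was 0.86 (SE 0.86) and went to 0.19 without STINGECKO 1 and to 1.32 without STINGECKO 2. Ndn, a paternally expressed protein of the MAGE family made by postmitotic neurons and other cells (ENSMUSG00000033585, chromosome 7, 62346569 to 62350262, plus strand), was at 18.97, 5.08, 15.1 and 23.7 CPM in the same order. STINGECKO 2 alone stood low, and the log2 fold change of -0.69 (SE 0.99) went to -0.02 without it and to -1.93 without STINGECKO 1.

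Meg3, a maternally expressed long noncoding RNA (ENSMUSG00000021268, chromosome 12, 109541001 to 109571726, plus strand), had 64, 81, 97 and 71 reads in STINGECKO 1, STINGECKO 2, WT 3 and WT 5. These were 3.49, 3.70, 4.48 and 3.42 CPM, with counting intervals that overlapped in all 4 libraries. Its log2 fold change was -0.14, but its 95% interval ran from -3.47 to 3.20. The edgeR fit estimates the spread behind that interval partly from other genes of like level. The interval is therefore not the spread of Meg3 alone. The highest library of Meg3 exceeded its lowest by 0.38 on the log2 scale, and only 0.654% of the 3978 tested genes at 1 to 10 CPM had a smaller range.

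The range over the 4 libraries differed among the members by level. At 100 to 500 CPM the median gene of 1948 had a range of 0.69 on the log2 scale. Igf2 (0.42), Grb10 (0.49) and Mest (0.68) were below it and H19 (0.84) above it. At 10 to 100 CPM the median gene of 6571 had a range of 1.36, and Plagl1 (1.71), Peg3 (1.75) and Ndn (2.20) were above it. At 1 to 10 CPM the median of 3978 genes was 4.69, and Cdkn1c (2.25), Dlk1 (2.03) and Meg3 (0.38) were below it.

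**Figure D3:**
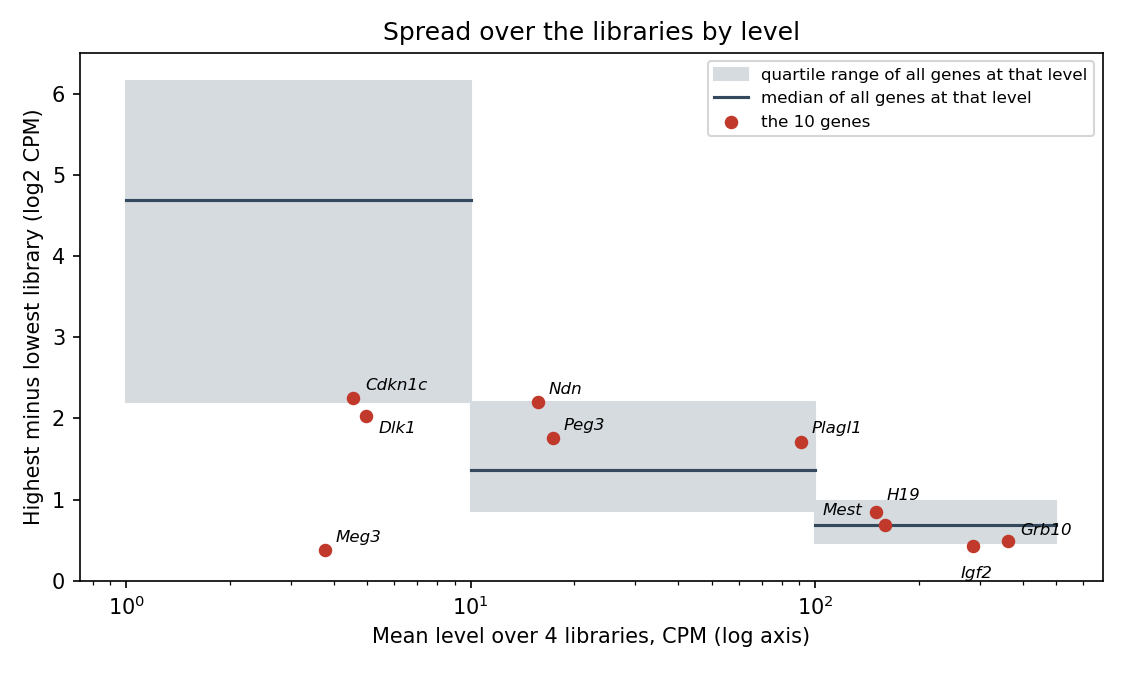
Highest minus lowest library in log2 CPM (y axis) against the mean level in CPM on a log axis for the 10 genes, with the median (line) and quartile range (grey) of all tested genes in 3 bands of level. Meg3 lies at 0.38, far under the grey band of genes at 1 to 10 CPM, and Ndn at 2.20, near the upper edge of its band.

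Igf2 and H19 lie 72.6 kb apart on chromosome 7 and are known to share enhancers and to be expressed from opposite parental alleles. Of the reads of the pair, Igf2 took 57.9% in STINGECKO 1 (56.8% to 58.9%, 95% exact binomial interval), 69.8% in STINGECKO 2 (68.8% to 70.8%), 71.0% in WT 3 (70.1% to 72.0%) and 65.3% in WT 5 (64.4% to 66.2%). The share was lowest in STINGECKO 1, and the genotypes overlapped (63.8% ± 8.43 against 68.2% ± 4.03, SD, n = 2 each, exact two-sided permutation p = 0.667). Per kb of merged exon, the ratio of Igf2 to H19 was 0.590, 0.993, 1.05 and 0.810 in the same order.

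Dlk1 and Meg3 lie 77.7 kb apart on chromosome 12 and are also expressed from opposite parental alleles. Dlk1 took 61.0% of the reads of the pair in STINGECKO 1 (53.1% to 68.5%), 68.2% in STINGECKO 2 (62.1% to 73.9%), 50.3% in WT 3 (43.0% to 57.5%) and 35.5% in WT 5 (26.6% to 45.1%), with exact binomial 95% intervals. Both STINGECKO libraries were above both WT libraries, and the interval of STINGECKO 1 overlapped that of WT 3. The means were 64.6% ± 5.13 and 42.9% ± 10.5 (SD, n = 2 each, exact two-sided permutation p = 0.333, the smallest this design can give). Reads of Meg3 differed less between the libraries than those of Dlk1 did (64 to 97 against 39 to 174).

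**Figure D4:**
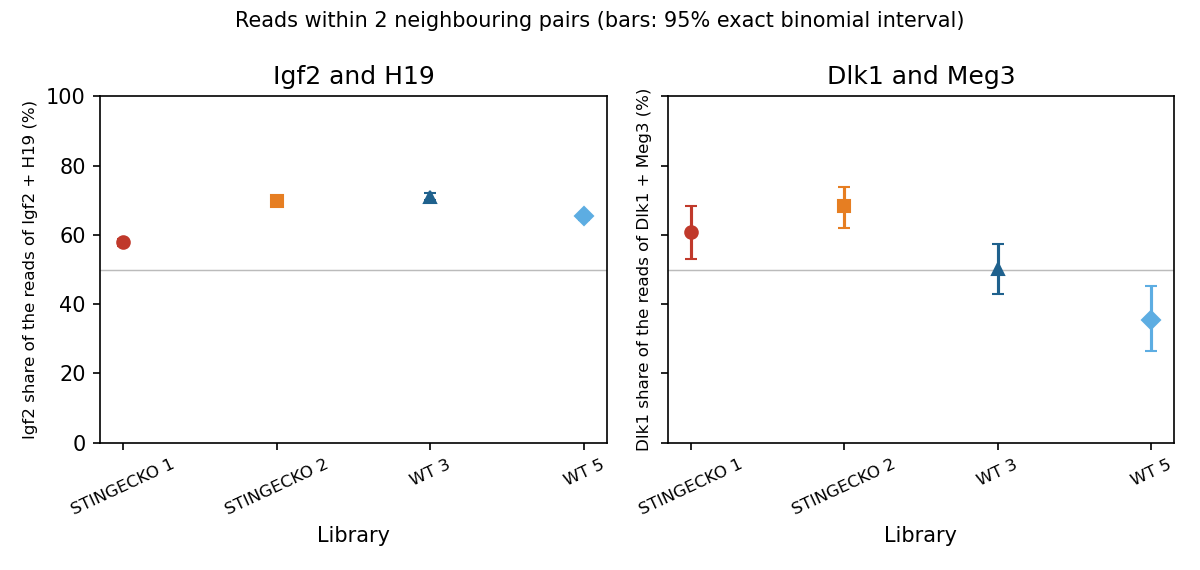
Share of the reads of each neighbouring pair that fell on Igf2 (left) or Dlk1 (right), in %, for each of the 4 libraries, with 95% exact binomial intervals as bars. The Igf2 share is lowest in STINGECKO 1 at 57.9%, and the Dlk1 share runs from 35.5% in WT 5 to 68.2% in STINGECKO 2.

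The authors' deposited tables set STINGECKO 1 beside WT 3 and STINGECKO 2 beside WT 5, with no library shared. They hold the same 4 libraries as the fit above. A gene whose genotypes do not overlap therefore has the same direction in both, apart from effects of scaling. The members with the same direction in both are those already given as not overlapping, so their directions here add no support. Igf2, Grb10, Mest and Plagl1 were lower in STINGECKO in both of the authors' deposited tables, which makes 4 members, against 28.9% of the 14100 shared genes. Dlk1 was the 1 member higher in both of the authors' deposited tables, against 21.2% of genes, and 5 members had opposite directions, against 49.8%. The authors' deposited table of STINGECKO 1 and WT 3 marked Peg3 as higher (log2 fold change 1.73), where 21.5% of its genes were marked higher, and Plagl1 as lower (-1.74), where 19.4% were marked lower. The authors' deposited table of STINGECKO 2 and WT 5 marked Cdkn1c (2.28) and Dlk1 (2.05) as higher and Ndn (-2.25) as lower, with 17.0% and 35.1% of its genes marked in those directions. For H19 the authors' deposited tables gave log2 fold changes of 0.65 and -0.74, and for Ndn 0.30 and -2.25. Each table compares 1 library with 1 library.

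Other genes known for imprinting were taken from lists labelled by parental allele. The label need not hold for every gene or tissue, and allelic expression in these cells was not measured. Of 27 other genes listed as paternally expressed 14 were tested, with 0 past the test in either direction. Of these, 6 were above 0 and 8 below, with a median log2 fold change of -0.08. Sgce, a sarcoglycan, was the highest at 123, 157, 132 and 118 CPM in STINGECKO 1, STINGECKO 2, WT 3 and WT 5. Snrpn, a component of spliceosomal particles, was at 32.1, 48.1, 26.9 and 23.8 CPM, with STINGECKO above WT. Nnat, a small membrane protein, was at 67.4, 57.5, 76.4 and 72.8 CPM, with STINGECKO below WT. Airn, the antisense RNA that silences Igf2r on the paternal allele, was at 74.5, 40.8, 95.4 and 54.8 CPM with overlapping genotypes. Airn overlaps Igf2r, so reads in shared stretches cannot be told apart without strand.

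Of 26 other genes listed as maternally expressed, a label that need not hold in these cells, 16 were tested, with 0 past the test in either direction. Of these, 7 were above 0 and 9 below, with a median of -0.06. Cd81, a tetraspanin, was the highest at 601, 543, 640 and 523 CPM. Kcnq1, a potassium channel gene of the Cdkn1c cluster, was at 194 and 188 CPM in STINGECKO and 130 and 118 in WT (log2 fold change 0.62, SE 0.23, unadjusted p = 0.0425, adjusted p = 1.00 by edgeR), the 1 gene of both lists under an unadjusted 0.05. Trappc9, of a vesicle tethering complex, was lower in both STINGECKO libraries (49.7 and 42.2 against 68.5 and 59.8 CPM), as was Ddc, which decarboxylates L-DOPA and neighbours Grb10 (104 and 58.8 against 104 and 138 CPM, with STINGECKO 1 and WT 3 equal within rounding). Atp10a, a lipid flippase, was higher in both (28.6 and 38.5 against 10.2 and 20.5 CPM).

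Imprinting control factors, a list that also holds enzymes that set or oxidise DNA methylation, had 13 of 14 tested. Of these, 0 were past the test in either direction, 9 were above 0 and 4 below, with a median of 0.17. Uhrf1, which brings the maintenance methyltransferase to replicated DNA, was at 65.6 and 69.5 CPM in STINGECKO and 23.9 and 39.1 in WT (log2 fold change 1.10, SE 0.46, unadjusted p = 0.0610 by edgeR). Zfp445, a zinc finger protein of imprint control, was at 68.6 and 49.0 against 36.4 and 39.5 CPM. Tet3, a methylcytosine dioxygenase, was at 163, 174 and 149 CPM in STINGECKO 1, WT 3 and WT 5 and at 19.6 in STINGECKO 2. Setdb1, a histone methyltransferase, overlapped between the genotypes.

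Partners of Igf2 and Grb10 in IGF signalling had 12 of 14 tested, with 0 past the test in either direction, 6 above 0, 6 below and a median of 0.00. Igf1r, the receptor for IGF ligands, was at 659 and 1001 CPM in STINGECKO and 820 and 626 in WT, with overlapping genotypes. Insr, the insulin receptor, was at 357 and 355 CPM in STINGECKO and 383 and 502 in WT. Igf2bp3, which binds Igf2 mRNA, was at 74.3 and 131 against 89.6 and 67.9 CPM. Cell cycle partners of Cdkn1c had 15 of 15 tested, with 0 past the test in either direction, 9 above 0, 6 below and a median of 0.06, Cdkn1c included. Cdk6, a G1 kinase, was at 262 and 302 CPM in STINGECKO and 204 and 111 in WT (unadjusted p = 0.0591 by edgeR). Ccnd1, a cyclin D, was at 725 and 690 against 830 and 782 CPM, and Rb1, the pocket protein those kinases act on, at 18.8 and 32.0 against 8.74 and 3.62.

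**Figure D5:**
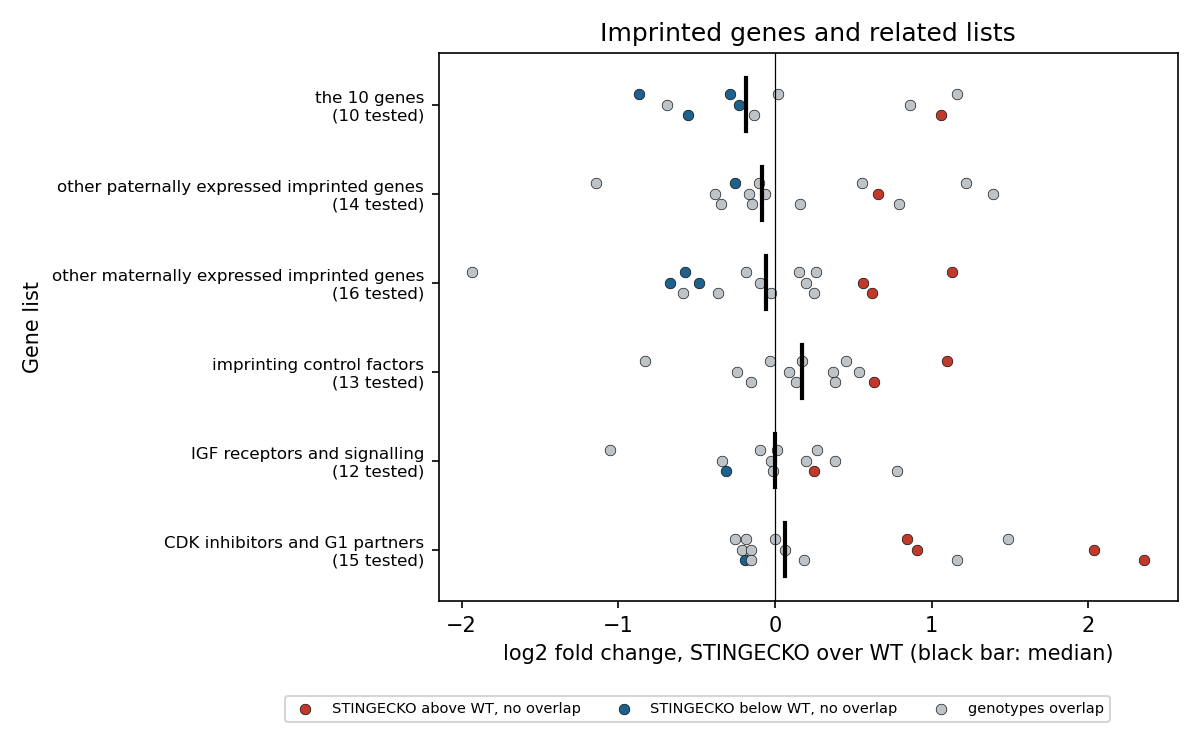
Log2 fold change (STINGECKO over WT, x axis) of each tested gene in 6 lists, coloured by whether the genotypes overlap, with the list's median as a black bar. The medians lie between -0.18 for the 10 genes and 0.17 for the imprinting control factors, and 0 genes passed the adjusted test.

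Markers of cell types other than endothelial cells moved between libraries, and their part in the results above was not tested. In these bulk samples, fewer cells of a type and less RNA per cell cannot be told apart. All 10 pericyte markers had reads in every library, with summed levels of 10680 and 11167 CPM in STINGECKO and 8699 and 8003 in WT. This sum was higher where Mest and Igf2 were lower, but it was mostly Rgs5 (6849 and 7225 against 5591 and 4876 CPM). Of the 10 markers, 6 were higher in both STINGECKO libraries (15.4% of all tested genes). Cspg4 was lower in both (83.8 and 152 against 155 and 181 CPM), and Pdgfrb, Abcc9 and Notch3 overlapped. Of 14 fibroblast and meningeal markers 11 were listed, with sums of 449 and 509 against 437 and 399 CPM. Of 10 choroid plexus markers 6 were listed, with sums of 123 and 164 against 128 and 160 CPM, mostly Enpp2, while Kl and Otx2 were not listed. Aqp1 of that list, a water channel, had 0 reads in both STINGECKO libraries and 94 and 274 in WT, and was among the genes DESeq2 called (adjusted p = 0.0163), not those of edgeR (adjusted p = 0.977). Of 10 neuron markers 8 were listed, with sums of 72.0 and 42.2 against 145 and 93.7 CPM, lowest in STINGECKO 2, as Ndn was, while Syt1 and Nefl were not listed. Of the 8, 7 had a log2 fold change below 0, and reads of Gap43, found in growing axons, were 1 and 0 in STINGECKO against 228 and 399 in WT (DESeq2 adjusted p = 0.00205, edgeR adjusted p = 0.977). All 10 astrocyte and radial glia markers were listed, with sums of 668 and 567 against 690 and 655 CPM, and 5 of them at 0 reads in STINGECKO 2. Vim, which endothelial cells also express, gave 454 to 478 CPM of each sum. Of the 9 tested, 7 had a log2 fold change below 0, and Slc1a3, a glutamate transporter, was at 13.1 and 0.594 CPM in STINGECKO against 50.9 and 33.95 in WT. All 10 microglia and macrophage markers were listed, with sums of 566, 412 and 561 CPM in STINGECKO 1, STINGECKO 2 and WT 3 and 1541 in WT 5. In WT 5 Igf2 and Mest were highest and Dlk1 and Cdkn1c lowest. The markers did not move as a set. Mrc1, Lyve1, Pf4, C1qa, C1qb, Csf1r and Tyrobp were highest in WT 5, with Mrc1 at 258 CPM there and 21.0 to 24.3 elsewhere. C1qc and Cx3cr1 were not highest in WT 5, and P2ry12 was lowest there (6.66 CPM, against 23.5 to 47.9 elsewhere). Of 10 erythroid markers 7 were listed, with sums of 1242 and 2853 against 2516 and 1314 CPM.

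Genes with a profile most like that of Igf2 or H19 were sought among 6924 genes of at least 20 CPM, by the root mean square difference of log2 CPM centred on each gene's mean over 4 libraries. Ankrd17 (0.0281), Mphosph8 (0.0295) and Poll (0.0296) were nearest to Igf2, and mt-Rnr1 (0.0408), Pfkp (0.0503) and Fam53a (0.0518) to H19. For Igf2, 18 genes lay within 0.05, and for H19 1 did. Among the members the nearest pairs were Igf2 with Mest (0.134) and Igf2 with Grb10 (0.145), and Cdkn1c lay nearest to Dlk1 (0.292). With 4 libraries these values describe the libraries only.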

How the data were processed

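RNA of 2 STINGECKO and 2 WT libraries was analysed from 2 deposited tables, each with 1 library of either genotype. Alignment and counting tools, per the submitters' processing notes, were TopHat2 2.0.12, Bowtie2 2.2.3 and HTSeq 0.6.0, with mm9 as the build. No source used here states the strand setting or annotation release. Per the file headers, each library has a deposited count column, and its values are whole reads. The authors' normalized columns are CPM, with a 0 written as a positive value, and were not used for tests. The authors' log2 fold change and p-value columns compare 1 library with 1 library, and the test behind the deposited p-value is not stated. Positions were identical to GENCODE M21 (GRCm38) for 89.6% of 17872 matched genes and for all 10 members, so they are given on GRCm38.

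Genes in both tables were merged by identifier, and a gene not listed had at most 4 reads in either library of that table. The 4 libraries were fitted with edgeR 4.0.16 (R 4.3.3): TMM factors, genes kept by filterByExpr at a minimum count of 10, the quasi-likelihood test, Benjamini-Hochberg adjustment over 13365 genes and a threshold of 0.05. Standard errors are the log2 fold change over the root of the F statistic. The fit estimates the spread of each gene partly from other genes of like level, so errors and intervals are not those of 1 gene alone. DESeq2 1.42.0, limma-voom (limma 3.58.1), other scalings and filters and leaving out each library were alternatives. The test was checked on simulated counts. Other genes named were, from each list, up to 4 with the smallest p at a mean of at least 5 CPM and the gene of highest level, and for the genes most like Igf2 and H19 the 3 nearest. The members, lists and tests were chosen with earlier results of these data known. Copg2, named beside Mest for its overlap, the single marker genes named and the promoters printed were chosen after values were seen. Counts were lowest on average for Meg3, Dlk1 and Cdkn1c, which had 38 to 198 reads per library. Their edgeR intervals also reflect spread estimated partly from other genes, so depth is not their only limit.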

Additional observations from a re-analysis of the deposited data

How the results depend on the processing

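Pairing by replicate number was not possible, because the genotypes share no replicate numbers. A block by deposited table (STINGECKO 1 with WT 3, STINGECKO 2 with WT 5) was fitted in its place and called 0 genes by edgeR, with 273 at an unadjusted p under 0.05. Under 13 alternatives (3 scalings, 2 filters, genes of either table, DESeq2, limma-voom, a block by deposited table, and each library left out), Igf2, Grb10, Mest, Plagl1 and Ndn kept a log2 fold change below 0 and Peg3, Cdkn1c and Dlk1 above 0 wherever they were tested. No member passed an adjusted 0.05 in any of them, and the lowest adjusted p was 0.321, for Mest without STINGECKO 1 (edgeR). H19 changed sign in 6, with -0.0089 under upper quartile scaling, -0.012 with library totals, -0.038 with limma-voom, -0.015 with the block by table, -0.46 without STINGECKO 1 and -0.23 without WT 3, and its values with a library left out ranged from -0.46 to 0.38. Meg3 changed sign without WT 3 (0.073), and its range was -0.31 to 0.07. The members' median ranged from -0.34 without STINGECKO 1 to -0.03 without STINGECKO 2. A minimum mean of 5 CPM left 7 members, with 2 above 0, since Meg3, Dlk1 and Cdkn1c fall below it. DESeq2 called 87 genes and edgeR 0, and edgeR called 0 in each fit with a library left out. The cause of these differences was not tested. A fit without a library takes the spread of its genotype from the other genotype.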

Other observations

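Several imprinted genes had reads almost wholly in a single library, and these were picked after their values were seen. The pattern also occurred outside imprinted genes. The share of all genes with it was not counted, so whether it is more common among imprinted genes is not known. Hemgn and Slc4a5, from the marker lists, had 238 and 178 reads in STINGECKO 1 and 0 in WT 3. Of genes averaging 5 to 20 CPM in the other libraries, 15.7% had 0 reads in STINGECKO 2. The same share was 1.40% to 4.44% for STINGECKO 1, WT 3 and WT 5. Mkrn3, a ring finger protein encoded near Ndn, had 207 reads in STINGECKO 1 and 0 in WT 3, and was not listed (at most 4 reads) for the other libraries. Peg10, derived from a retrotransposon, had 113 reads in WT 3 and 2 or 3 in each other library. Usp29, which shares its promoter region with Peg3, had 91 reads in WT 3, 0 in STINGECKO 1 and no listed value for STINGECKO 2 and WT 5, although Peg3 was lowest in WT 3. Zdbf2 had 90 reads and Slc38a4, an amino acid transporter, 50 reads in WT 5, with 0 in STINGECKO 2 and no listed value for STINGECKO 1 and WT 3. Rian, a noncoding RNA downstream of Meg3, had 74, 0, 53 and 22 reads in STINGECKO 1, STINGECKO 2, WT 3 and WT 5, and Mirg, further downstream, had 58, 14, 86 and 36, whereas Meg3 had 64, 81, 97 and 71. In STINGECKO 2 these neighbours were thus at their lowest while Meg3 was not.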
